A study of Mus musculus with 7 samples.

Results

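Immediate early genes are switched on within minutes of a stimulus, without new protein synthesis. The 10 described here were chosen by symbol: the AP-1 subunit genes Fos, Fosb, Jun, Junb, Jund and Atf3, the zinc finger factor gene Egr1, the nuclear protein gene Ier2, the phosphatase gene Dusp1 and the RNA-decay gene Zfp36. All 10 were found among the 21176 genes of the deposited table, each as 1 row. RNA had been sequenced from follicular dendritic cells (FDCs), stromal cells that display antigen to B cells in the follicle. The cells came by flow sorting from popliteal lymph nodes of male, non-immunized mice aged 8 to 12 weeks, either wild type (WT, 4 samples) or Ngfr KO (3 samples). Ngfr encodes the p75 neurotrophin receptor. Each sample pooled nodes of several animals. The allele, the strain, the sorting markers and the dissociation of the nodes are not given in the sources used here.

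AP-1 is a dimer of basic leucine zipper proteins, a FOS family protein paired with a JUN family protein or JUN family proteins paired with each other, that binds DNA and regulates transcription. FOS and JUN family genes respond to growth factors, cytokines and stress through MAP kinases, and DUSP1 and ZFP36 are feedback inhibitors made in the same response: DUSP1 removes phosphate from MAP kinases and ZFP36 binds AU-rich elements and speeds the decay of messenger RNAs. The same genes are known to rise while a tissue is being dissociated into single cells, so their levels in sorted cells can hold transcripts made during preparation.

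The start regions of 4 of the genes are shown because Fosb and Zfp36 were lower in Ngfr KO whereas Fos and Dusp1 did not pass the test. RefSeq's table for GRCm38.p6 held windows of 300 bases, from 250 before to 50 after the annotated start, for 8 of the 10 genes. The windows are chr7:19309996-19310295 on the minus strand for Fosb, chr12:85473640-85473939 on the plus strand for Fos, chr7:28379179-28379478 on the minus strand for Zfp36 and chr17:26508423-26508722 on the minus strand for Dusp1. They are written 5′ to 3′ in the direction of transcription, with capitals for matches, on either strand, to the core of the cAMP response element, the EGR element, a CArG box (bound by serum response factor) or a TATA box.
Fosb: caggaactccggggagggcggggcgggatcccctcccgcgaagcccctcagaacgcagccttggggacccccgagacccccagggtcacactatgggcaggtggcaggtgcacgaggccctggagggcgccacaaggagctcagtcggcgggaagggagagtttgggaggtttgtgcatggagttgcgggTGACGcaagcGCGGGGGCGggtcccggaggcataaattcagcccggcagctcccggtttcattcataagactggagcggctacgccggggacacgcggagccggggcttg
Fos: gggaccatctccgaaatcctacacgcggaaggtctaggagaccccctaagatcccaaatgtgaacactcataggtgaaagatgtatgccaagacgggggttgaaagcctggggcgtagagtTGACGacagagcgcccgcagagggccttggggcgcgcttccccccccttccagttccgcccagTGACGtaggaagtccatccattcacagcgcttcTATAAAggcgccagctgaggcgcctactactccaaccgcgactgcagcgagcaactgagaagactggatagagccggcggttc
Zfp36: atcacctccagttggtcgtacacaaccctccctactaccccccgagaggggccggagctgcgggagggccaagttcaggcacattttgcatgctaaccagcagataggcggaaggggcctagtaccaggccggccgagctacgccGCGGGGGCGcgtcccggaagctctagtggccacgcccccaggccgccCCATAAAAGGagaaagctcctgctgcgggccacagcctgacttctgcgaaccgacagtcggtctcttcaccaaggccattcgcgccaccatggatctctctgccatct
Dusp1: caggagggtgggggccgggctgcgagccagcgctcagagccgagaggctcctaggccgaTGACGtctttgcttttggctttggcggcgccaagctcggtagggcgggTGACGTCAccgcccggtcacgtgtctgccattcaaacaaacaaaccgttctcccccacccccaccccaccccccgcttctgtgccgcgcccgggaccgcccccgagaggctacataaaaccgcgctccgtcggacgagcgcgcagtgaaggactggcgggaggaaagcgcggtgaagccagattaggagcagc

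The core of the cAMP response element (TGACG) was present in 5 of the 8 windows, those of Fos, Fosb, Junb, Atf3 and Dusp1, and in 20.8% of all 32851 windows of this length. In the Fos window it lay 129 and again 66 bases before the start, and a TATA box (TATAAA) lay 33 bases before it. The full palindrome (TGACGTCA), which contains the core on both strands, was present in the Dusp1 window alone among the 8, 143 bases before the start, and in 1.79% of all windows. Matches to the EGR element (GCGGGGGCG) occurred in 2 of the 8, Fosb at 50 and Zfp36 at 105 bases before the start, against 2.91% of all windows. A CArG box match (CCATAAAAGG) was found only for Zfp36, 58 bases before the start, against 1.63% of all windows. TATAAA also occurred for Junb, and 13.6% of all windows had it. The AP-1 element (TGANTCA) had no match in these 8 windows and was present in 7.81% of all. The Jund window (chr8:70697489-70697788, plus strand) held none of these matches. It ends before the start of Jund in the GENCODE M21 annotation, 70698949, so it may not cover the start of that gene. All of these are letters in a short window and do not show binding.

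The values are reads scaled by a factor for each library, named TMM (trimmed mean of M values) by the authors. A value of 1 stood for 230 to 295 reads. Totals of reads ran from 17244925 to 18873542 in WT and from 20741770 to 21538400 in Ngfr KO, so the Ngfr KO libraries were all deeper. In WT 5.55% to 7.42% of reads came from the mitochondrial genome, and in Ngfr KO 3.14% to 4.97%. The targeted gene Ngfr had 97 to 298 reads in WT and 46 to 104 in Ngfr KO. Its normalised values did not overlap between genotypes (WT 0.377 to 1.3, Ngfr KO 0.184 to 0.353). Too few samples reached a value of 1 for Ngfr to be tested with limma. With edgeR on the reads its log2 change was -1.55, and it was not called (adjusted p = 0.0574). Of 13 FDC markers, 12 were called higher in Ngfr KO, with sums of 1820 to 5110 (WT) and 7870 to 10400 (Ngfr KO). Of 14 endothelial markers, 12 were tested and all 12 were called lower, their sums being 156 to 203 (WT) and 37.1 to 67.8 (Ngfr KO). Sums of B-cell markers (WT 15.5 to 26.5, Ngfr KO 12.7 to 43.6), T-cell markers (4.89 to 12.0 and 3.69 to 11.0), myeloid markers (2.18 to 9.78 and 6.50 to 37.3), reticular cell markers (57.0 to 160 and 107 to 135) and pericyte markers (20.9 to 55.3 and 42.4 to 71.3) overlapped between genotypes. At least 1 sample was at 0 for 6 myeloid, 2 pericyte, 1 T-cell and 1 reticular marker, and no FDC, endothelial or B-cell marker was at 0.

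All 10 genes were expressed in all 7 samples, with 312 reads or more. To compare genes with one another, values were divided by the summed length of their exons, merged over all annotated transcripts. This length can exceed that of the transcripts present, which would lower the level per kb. Fos was the highest in WT, at a level of 104 ± 44.5 per kb (SD, n = 4). Below it came Dusp1 at 21.6 ± 6.85, Zfp36 at 18.5 ± 7.63, Junb at 16.8 ± 7.22, Jun at 16.5 ± 5.95, Ier2 at 12.4 ± 6.43, Egr1 at 10.8 ± 4.38 and Atf3 at 10.3 ± 6.34 per kb. Each neighbouring pair from Dusp1 to Atf3 differed by less than the SD of either gene. The lowest levels per kb in WT were those of Fosb at 4.77 ± 1.28 and Jund at 1.87 ± 0.374. In Ngfr KO (n = 3) Fos was again highest, at 77.6 ± 37.4 per kb, and Fosb and Jund lowest, at 1.53 ± 0.464 and 1.02 ± 0.331.

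Fosb, Jund and Zfp36 were lower in Ngfr KO, Egr1 narrowly missed the threshold, and the remaining 6 did not pass the test. A gene was called at a Benjamini-Hochberg adjusted p under 0.05 from limma on log2(value + 1), over 8326 genes tested. So 3 of 10 were called, all lower, where 34.2% of all tested genes were called in either direction and 15.8% were called lower. As a share, 3 of 10 is close to the rate of calls among all genes, so the count itself does not set these genes apart. None was called higher by limma, which called 18.3% of all genes higher, or by edgeR's quasi-likelihood test on the reads, which called 8.67% higher. At an unadjusted p under 0.05 none of the 10 was higher by either tool, against 24.7% of all genes with limma. The median log2 change of the 10 was -0.49, against 0.02 over all genes tested, with a range from -1.55 for Fosb to 0.52 for Ier2. All 10 passed the filter on low values, which asked for 1 or more in 3 or more samples.

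**Figure D1:**
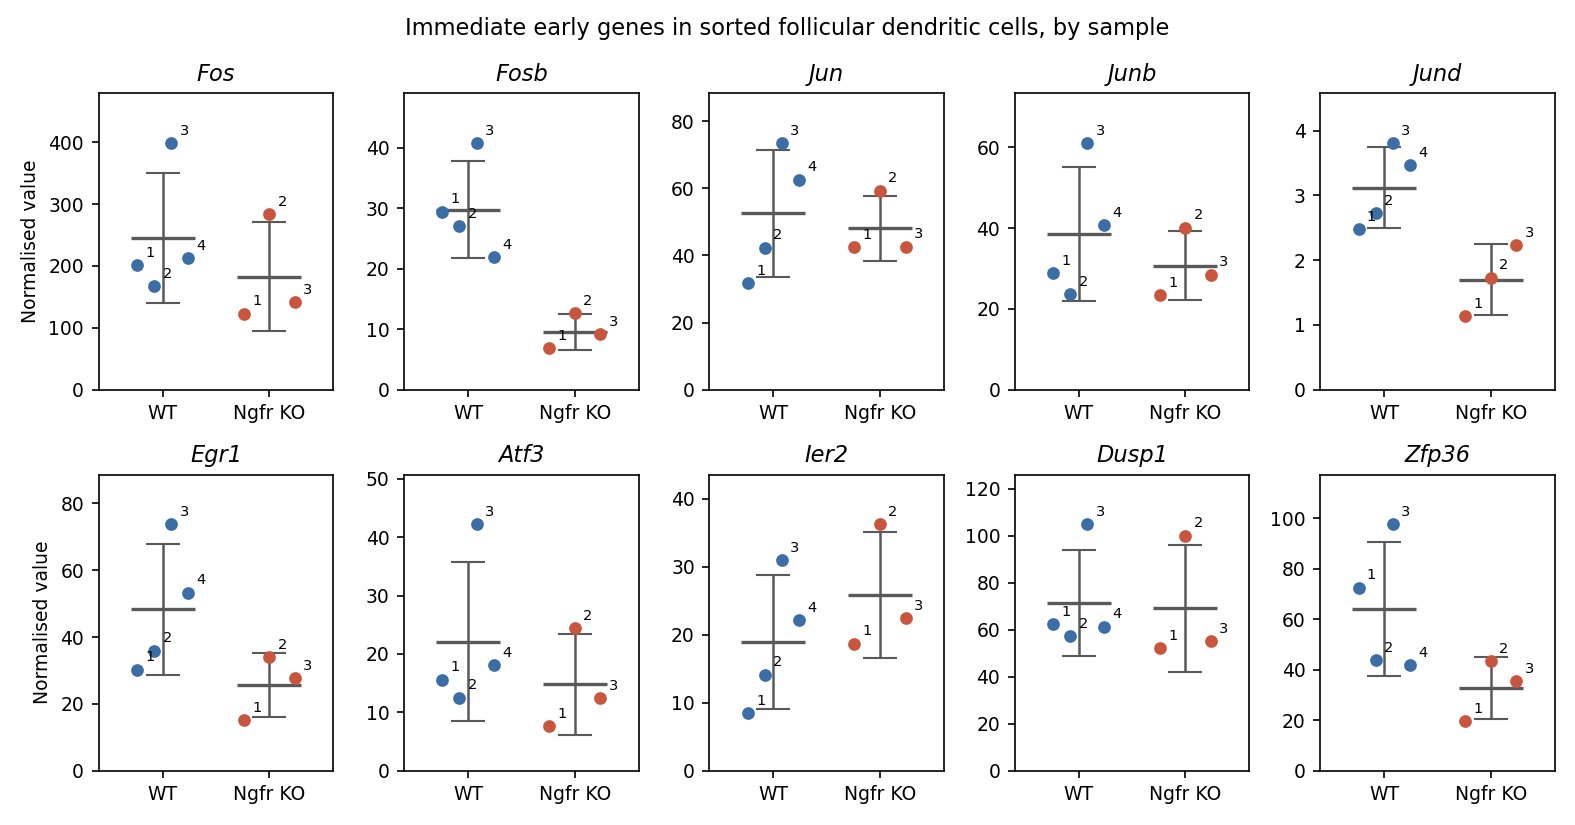
Normalised value (linear axis from 0) of each of the 10 genes in the 4 WT (blue) and 3 Ngfr KO (red) samples; numbers are replicates, the wide bar is the mean and the whisker the SD. Fosb and Jund are the genes whose groups do not overlap, and WT replicate 3 is the highest WT sample in all 10 panels.

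Among the FOS family genes, Fosb was lower in every Ngfr KO sample than in every WT sample. Its product, like FOS, needs a JUN partner to bind DNA. Fosb values were 29.4, 27.0, 40.8 and 21.9 in WT replicates 1 to 4 and 6.84, 12.6 and 9.17 in Ngfr KO replicates 1 to 3. The lowest WT value was well above the highest Ngfr KO value. Mean ± SD was 29.8 ± 8.00 for the 4 WT and 9.53 ± 2.90 for the 3 Ngfr KO samples. On the log2 scale Fosb fell by 1.55 (SE 0.24, limma adjusted p = 0.00097). edgeR on the reads gave a log2 change of -1.57 (SE 0.28, adjusted p = 0.00822), and Fosb was the only one of the 10 that edgeR called lower, where 6.55% of 16751 genes were called lower and 15.2% either way.

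Fos, the most abundant of the 10, did not separate the genotypes. Fos values were 201, 167, 399 and 213 in WT replicates 1 to 4 and 123, 284 and 141 in Ngfr KO replicates 1 to 3. Ngfr KO replicate 2 lay above all WT samples but replicate 3, and the other Ngfr KO samples lay below all WT samples. Fos had a log2 change of -0.44 (95% interval -1.21 to 0.34, limma adjusted p = 0.352). The ratio of Fosb to Fos within a sample, examined after the values were seen, was 0.146, 0.162, 0.102 and 0.103 in WT replicates 1 to 4 and 0.0557, 0.0444 and 0.0650 in Ngfr KO replicates 1 to 3. These ratios did not overlap between genotypes. The pair was picked from these same values, so this is a description. How often other gene pairs separate was not examined.

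Within the JUN family only Jund was called. JUND differs from JUN and JUNB in being widely present in resting cells. Jund values were 2.48, 2.72, 3.81 and 3.47 in WT replicates 1 to 4 and 1.13, 1.73 and 2.23 in Ngfr KO replicates 1 to 3. The groups did not overlap, but the highest Ngfr KO value was near the lowest WT value. Jund fell by 0.62 on the log2 scale (SE 0.18, limma adjusted p = 0.0220). edgeR gave -0.82 with an adjusted p of 0.0632, and the limma call was lost without Ngfr KO replicate 1 (log2 change -0.46, adjusted p = 0.113) and without Ngfr KO replicate 2 (-0.64, adjusted p = 0.0581). Of the 10 genes, 2 had every Ngfr KO value below every WT value, where 18.3% of all tested genes did, and none had every value above, where 22.6% did.

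Jun, which encodes the founding JUN protein, had values of 31.7, 42.3, 73.5 and 62.5 in WT replicates 1 to 4 and 42.4, 59.3 and 42.6 in Ngfr KO replicates 1 to 3. All Ngfr KO values lay inside the WT range. Jun had a log2 change of -0.07 (95% interval -0.68 to 0.54, limma adjusted p = 0.863). Junb, whose product is a JUN partner with weaker activation than JUN, had values of 28.9, 23.6, 61.1 and 40.7 in WT replicates 1 to 4 and 23.4, 40.1 and 28.5 in Ngfr KO replicates 1 to 3. Ngfr KO replicate 1 was just below the lowest WT sample and the others lay inside the WT range. Its log2 change was -0.26 (95% interval -0.92 to 0.39, limma adjusted p = 0.509).

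Atf3, a stress-induced member of the ATF/CREB family that dimerises with JUN proteins, had values of 15.6, 12.5, 42.3 and 18.1 in WT replicates 1 to 4 and 7.64, 24.4 and 12.4 in Ngfr KO replicates 1 to 3. The groups overlapped, and both held 1 sample well above the rest, WT replicate 3 and Ngfr KO replicate 2. For Atf3 the log2 change was -0.53 (95% interval -1.40 to 0.33, limma adjusted p = 0.313).

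Egr1, a zinc finger activator induced by MAP kinase signalling, came close to the threshold. Egr1 values were 30.2, 35.9, 73.9 and 53.3 in WT replicates 1 to 4 and 15.2, 33.9 and 27.7 in Ngfr KO replicates 1 to 3. The groups overlapped through Ngfr KO replicate 2, which lay above WT replicate 1. For Egr1 the log2 change was -0.88 (95% interval -1.58 to -0.18, limma adjusted p = 0.0528), and Egr1 was called without WT replicate 1 (-1.07, adjusted p = 0.0309) and without Ngfr KO replicate 2 (-1.11, adjusted p = 0.0453).

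Ier2 was the only one of the 10 with a positive log2 change, and it did not pass the test. Ier2 values were 8.49, 14.1, 31.0 and 22.1 in WT replicates 1 to 4 and 18.7, 36.3 and 22.4 in Ngfr KO replicates 1 to 3. Ngfr KO replicate 2 was the highest of the 7 samples and WT replicate 1 the lowest. Ier2 had a log2 change of 0.52 (95% interval -0.26 to 1.29, limma adjusted p = 0.277).

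The feedback genes differed in outcome: Zfp36 was called lower and Dusp1 did not pass the test. Zfp36 values were 72.5, 43.9, 97.8 and 41.9 in WT replicates 1 to 4 and 19.5, 43.5 and 35.5 in Ngfr KO replicates 1 to 3. Ngfr KO replicate 2 lay between WT replicates 4 and 2, so the groups overlapped. Zfp36 fell by 0.93 on the log2 scale (SE 0.33, limma adjusted p = 0.0468). The call was lost with edgeR (-0.89, adjusted p = 0.119), without WT replicate 1 (-0.84, adjusted p = 0.103), WT replicate 3 (-0.70, 0.107), Ngfr KO replicate 1 (-0.60, 0.215) or Ngfr KO replicate 3 (-1.02, 0.0624), and in all in 11 of 18 alternatives.

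Dusp1 values were 62.2, 57.2, 105 and 61.2 in WT replicates 1 to 4 and 52.0, 99.99 and 55.0 in Ngfr KO replicates 1 to 3. WT replicate 3 and Ngfr KO replicate 2 were far above the other samples, which lay close together. Among those, Ngfr KO replicates 1 and 3 (52.0 and 55.0) lay just below WT replicates 1, 2 and 4 (57.2 to 62.2). Dusp1 had a log2 change of -0.07 (95% interval -0.69 to 0.55, limma adjusted p = 0.864). The ratio of Zfp36 to Dusp1, also examined after the values were seen, was 1.17, 0.768, 0.928 and 0.685 in WT replicates 1 to 4 and 0.375, 0.435 and 0.645 in Ngfr KO replicates 1 to 3, without overlap. Of the other ratios examined in the same way, Ier2 to Egr1 did not overlap, at 0.281 to 0.419 in the WT samples and 0.811 to 1.23 in the Ngfr KO samples. By contrast Jund to Jun overlapped, with 0.0784, 0.0644, 0.0518 and 0.0555 in WT replicates 1 to 4 and 0.0267, 0.0291 and 0.0525 in Ngfr KO replicates 1 to 3. Junb to Jun overlapped as well (0.559 to 0.913 and 0.553 to 0.675), as did the antisense gene Junos to Jun (0.00166 to 0.00655 and 0.00205 to 0.0135). All these pairs were picked with the values known, so ratios without overlap are a description.

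**Figure D2:**
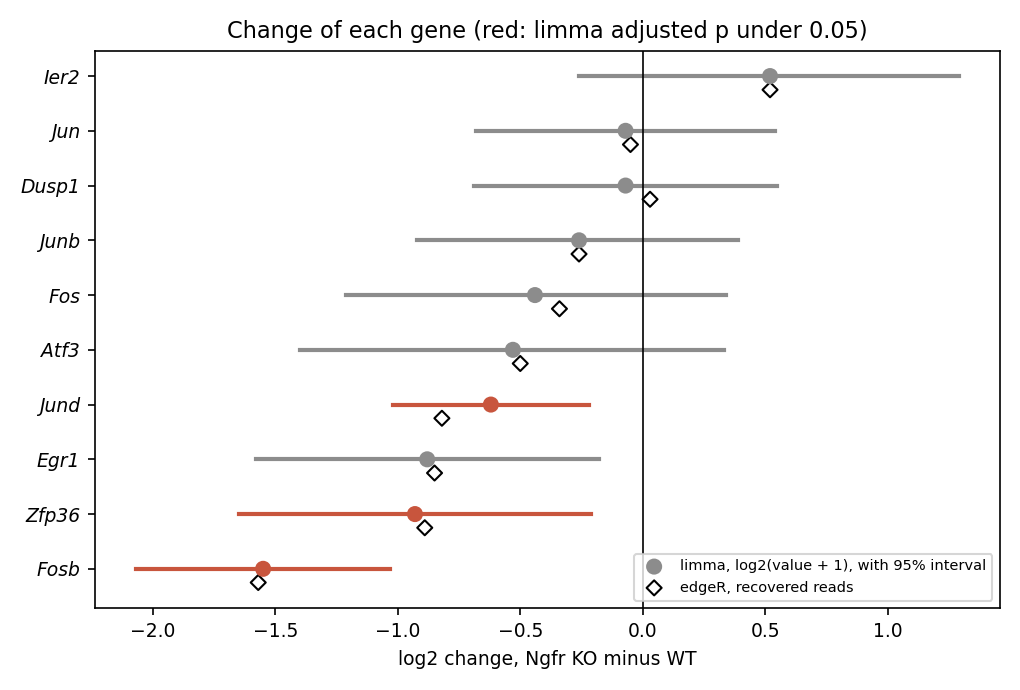
log2 change of each gene, Ngfr KO minus WT, from limma on log2(value + 1) (circles, with 95% intervals; red where the adjusted p is under 0.05) and from edgeR on the reads (open diamonds). Fosb lies farthest from 0 at -1.55, Zfp36 and Jund are the other red points, and Ier2 at 0.52 is the only circle above 0.

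The 10 genes varied together from sample to sample within each genotype. WT replicate 3 was the highest WT sample for 10 of 10, a rank it held in 34.5% of all tested genes. Ngfr KO replicate 1 was the lowest Ngfr KO sample for 10 of 10 (26.6% of all tested genes), and Ngfr KO replicate 2 the highest for 9 of 10 (34.7%), the exception being Jund, highest in replicate 3. The mean log2(value + 1) over the 10 genes was 4.88, 4.84, 5.85 and 5.17 in WT replicates 1 to 4 and 4.26, 5.18 and 4.67 in Ngfr KO replicates 1 to 3. Ngfr KO replicate 2 thus stood above 3 of the 4 WT samples in this mean. WT replicate 3 had the fewest genes above 0, 17771 against 18631 to 20047 in the other WT samples. Its endothelial marker sum was 184, inside the range of the other WT samples, and that of Ngfr KO replicate 2 was 67.8, the highest of the 3 Ngfr KO samples. Without these 2 high samples, an alternative chosen after the data were seen, Fosb was the only gene of the 10 called (log2 change -1.59, limma adjusted p = 0.00417), while Jund had -0.56 (0.0900) and Zfp36 -0.93 (0.0651).

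**Figure D3:**
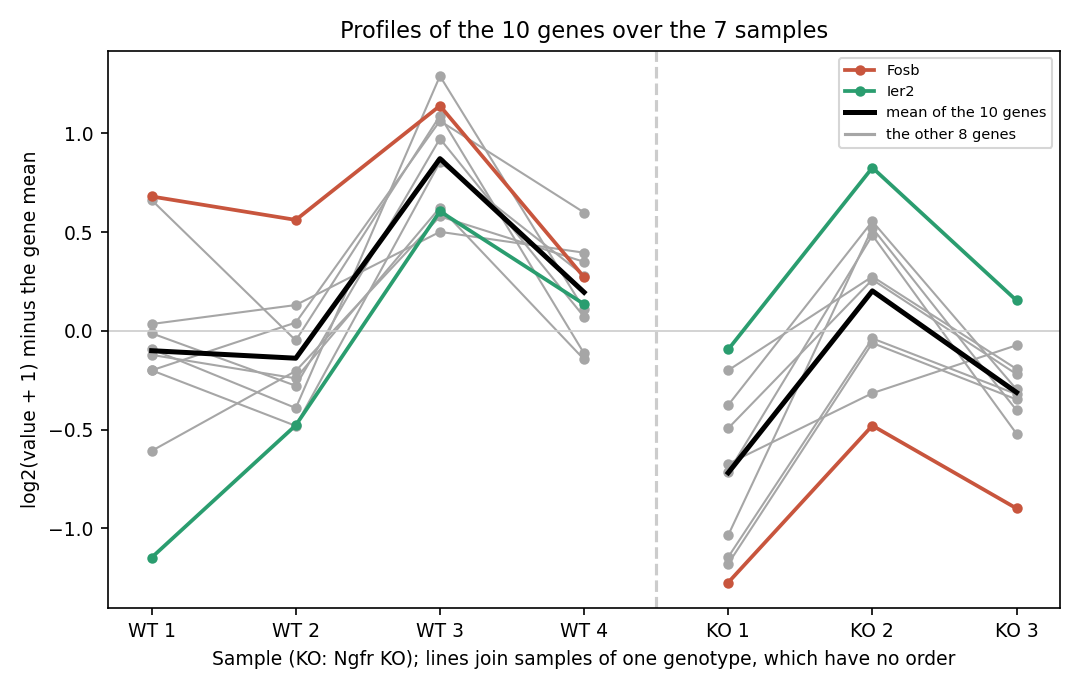
log2(value + 1) minus the gene's mean over the 7 samples, for Fosb (red), Ier2 (green), the other 8 genes (grey) and the mean of all 10 (black); lines join samples of one genotype only to let a gene be followed. Most lines peak at WT replicate 3 and Ngfr KO replicate 2, whereas Fosb is the lowest line in all 3 Ngfr KO samples and Ier2 the highest.

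Relative to the mean of the 10 in the same sample, on the log2 scale, Fosb had levels of 0.05, -0.03, -0.46 and -0.65 in WT replicates 1 to 4 and -1.29, -1.41 and -1.32 in Ngfr KO replicates 1 to 3. It was the only one of the 10 that lay below all WT samples on this scale, as did 0.54% of all tested genes. Ier2 had relative levels of -1.63, -0.92, -0.85 and -0.64 in WT and 0.04, 0.04 and -0.11 in Ngfr KO. Dusp1 had 1.10, 1.02, 0.88 and 0.79 in WT and 1.47, 1.48 and 1.14 in Ngfr KO. Ier2 and Dusp1 thus lay above all WT samples, as did 26.8% of all tested genes. The other 7 overlapped. This scale was chosen after the values were seen. Its reference, the mean of the 10, includes Fosb and ran lower in Ngfr KO (4.26 to 5.18) than in WT (4.84 to 5.85). Subtracting it moves genes up in Ngfr KO. The shares of 0.54% and 26.8% therefore depend on that reference, and without it they were 18.3% and 22.6%.

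Outside the lists, the 5 genes whose centred profiles over the 7 samples lay closest to the mean profile of the 10 were Dnajb4, Glul, Hhex, Sertad1 and Lmcd1. Their root mean square difference from it was 0.13 for Dnajb4, 0.17 for Glul, 0.17 for Hhex, 0.18 for Sertad1 and 0.20 for Lmcd1 on the log2 scale, where Fos itself had 0.16 and Fosb and Ier2 had 0.57. Dnajb4, a J-domain cochaperone, had values of 6.09, 5.58, 10.3 and 6.69 in WT replicates 1 to 4 and 3.73, 6.33 and 3.98 in Ngfr KO replicates 1 to 3. Of these 5, only Hhex passed the test (log2 change -0.63, limma adjusted p = 0.0443), with overlapping groups.

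More immediate early genes were lower in Ngfr KO than higher. Of 8 other AP-1 subunit genes and 36 other immediate early genes listed, 43 were in the table and 29 passed the filter. limma called 15 of the 29 lower and 3 higher, where it called 15.8% of all tested genes lower and 18.3% higher. edgeR called 15 of 42 lower and 3 higher, against 6.55% and 8.67% of all genes it tested. The median log2 change of the 29 was -0.67. These lists were drawn up with earlier results of these data known, so their counts are a description. Some of the genes called by limma reached the filter's value of 1 in only 1 genotype. Those genes were tested only because they were high there.

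Among the other AP-1 subunits, Fosl2, which encodes the FOS family protein FRA2, fell by 1.16 on the log2 scale (limma adjusted p = 0.00153), with a mean ± SD of 7.21 ± 1.35 over the WT and 2.72 ± 0.926 over the Ngfr KO samples. Its WT values were 8.07, 5.95, 8.65 and 6.19 and its Ngfr KO values 1.92, 2.50 and 3.74. Like Fosb, Fosl2 had no overlap between groups. Batf3, a factor needed for cross-presenting dendritic cells, rose from 0.605 ± 0.218 to 1.57 ± 0.220, a log2 change of 0.68 (limma adjusted p = 0.00587). edgeR, which adds no pseudocount of 1, gave Batf3 a log2 change of 1.44 (adjusted p = 0.0156). Batf3 was below 1 in every WT sample, so it passed the limma filter only through the Ngfr KO samples, where it was high. Atf2, Atf7 and Batf were tested and did not pass. Fosl1, Batf2 and Jdp2 did not pass the filter.

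Of the 24 tested among the other immediate early genes, 14 were called lower and 2 higher by limma, against 15.8% and 18.3% of all tested genes. By limma log2 change, the largest falls without overlap were in Btg2 (log2 change -1.30), Nr4a2 (-1.28), Btg1 (-1.23), Cebpd (-1.17), Tiparp (-1.16) and Mcl1 (-1.14), and their limma adjusted p-values lay between 0.000676 and 0.00496. This order is on the log2(value + 1) scale. By edgeR Nr4a2 fell by 2.88 on the log2 scale, against 1.30 for Btg2 and 1.23 for Btg1. BTG1 and BTG2 are antiproliferative proteins, NR4A2 is an orphan nuclear receptor and CEBPD is a transcription factor of the acute phase response. TIPARP is a member of the poly-ADP-ribose polymerase family and MCL1 is a survival protein of the BCL2 family. Btg2 had values of 30.6, 29.7, 55.3 and 26.4 in WT replicates 1 to 4 and 8.73, 17.6 and 14.8 in Ngfr KO replicates 1 to 3, and Nr4a2 had 2.42, 1.48, 3.85 and 1.33 in WT and 0.0762, 0.309 and 0.509 in Ngfr KO. WT replicate 3 was again the highest WT sample in both. Family members of Egr1 and Nr4a2 were named after their values were seen. Egr3 was called lower by limma with a log2 change of -1.04 (adjusted p = 0.00403) and by edgeR with -2.32 (adjusted p = 0.0128), and Nr4a1 by limma with -1.03 (adjusted p = 0.00645) and by edgeR with -1.60 (adjusted p = 0.0464). Nr4a2 and Egr3 stayed below 1 in every Ngfr KO sample and passed the limma filter only through WT. Egr2, Egr4 and Nr4a3 did not pass the filter for limma. edgeR called Nr4a3 lower (adjusted p = 0.0119), with WT values of 0.168 to 0.430 and Ngfr KO values of 0.00363, 0.0136 and 0.0200, which are too few reads for a fold. It did not call Egr2 (-1.14, adjusted p = 0.283) or Egr4 (0.29, adjusted p = 0.926).

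The 2 called higher were Klf6 and Nfkbia. Klf6, a zinc finger factor gene, rose by 1.22 on the log2 scale (limma adjusted p = 0.00784), with a mean ± SD of 20.7 ± 6.18 over the WT and 50.9 ± 20.8 over the Ngfr KO samples. Nfkbia, which encodes the NF-κB inhibitor IκBα, had values of 77.4, 81.9, 164 and 127 in WT replicates 1 to 4 and 186, 271 and 243 in Ngfr KO replicates 1 to 3, a log2 change of 1.10 (limma adjusted p = 0.0144). Neither overlapped between groups, but for Klf6 the lowest Ngfr KO value (30.6, replicate 3) was near the highest WT value (29.6, replicate 3).

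**Figure D4:**
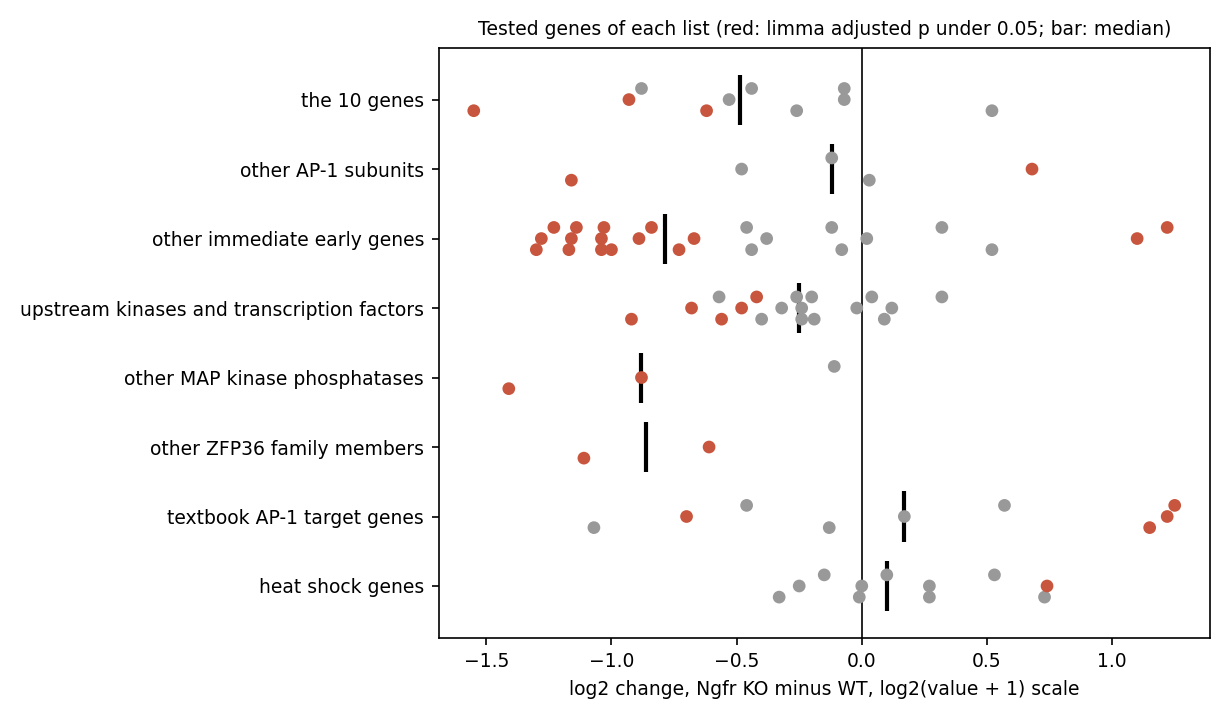
log2 change, Ngfr KO minus WT on the log2(value + 1) scale, of each tested gene of the 10 and of 7 related lists (red where the limma adjusted p is under 0.05; black bar, the list's median). The median of the 10 is -0.49 and that of the other immediate early genes -0.78, while the heat shock genes have 0.10 and the AP-1 target genes 0.17.

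Of 24 kinase and transcription factor genes upstream of this response, 18 were tested, 5 were called lower and none higher by limma, none was higher at an unadjusted p under 0.05, and edgeR called 3 of 24 lower and 0 higher. Over all tested genes limma called 15.8% lower and 18.3% higher, with 24.7% higher at an unadjusted p under 0.05, and edgeR called 6.55% lower and 8.67% higher. Elk4, which encodes a partner of serum response factor, had a log2 change of -0.92 (limma adjusted p = 0.00334), Mapk14 (p38α) -0.68 (0.0110) and Rps6ka3 (the kinase RSK2) -0.56 (0.0175). Of the other MAP kinase phosphatase genes, 3 of 9 were tested and Dusp2 and Dusp6 were called lower. Dusp2 had values of 5.40, 4.14, 8.60 and 6.43 in WT replicates 1 to 4 and 0.892, 1.48 and 2.83 in Ngfr KO replicates 1 to 3, a log2 change of -1.41 (limma adjusted p = 0.00193), and Dusp6 overlapped between groups (-0.88, adjusted p = 0.0266). edgeR did not call Dusp6 (-0.94, adjusted p = 0.125) and called Dusp5, which limma did not test, lower (-1.98, adjusted p = 0.0450). The ZFP36 relatives Zfp36l1 (-0.61, limma adjusted p = 0.0232) and Zfp36l2 (-1.11, limma adjusted p = 0.00246) were both lower without overlap, whereas Zfp36 itself overlapped. edgeR did not call Zfp36l1 (-0.61, adjusted p = 0.0653).

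Genes known as AP-1 targets did not follow a single direction. Among those tested, Mmp3 (log2 change 1.25) and Timp1 (1.15) were called higher and Vegfa (-0.70) lower, with limma adjusted p-values from 0.00258 to 0.00719. Mmp3 encodes stromelysin, Timp1 an inhibitor of metalloproteinases and Vegfa an endothelial growth factor. Mmp3 is low in WT, with values from 0 to 0.866, and edgeR did not call it (adjusted p = 0.119). Mmp3 passed the limma filter only through the Ngfr KO samples. Of 11 heat shock genes, limma called Hspd1, a mitochondrial chaperonin gene, higher (log2 change 0.74, adjusted p = 0.0106), and called none lower. None was lower at an unadjusted p under 0.05 in limma, where 3891 of 8326 genes passed and 2059 of those were higher. edgeR called 0 lower. Over all tested genes limma called 15.8% lower and 18.3% higher, and edgeR 6.55% and 8.67%. Counts over 11 genes thus do not set the heat shock genes apart.

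The falls of Fosb, Jund and Zfp36, and of the 15 other immediate early and AP-1 genes called lower, stood beside the endothelial markers that were lower and the FDC markers that were higher in Ngfr KO. In these pooled sorted cells, fewer cells of a type and less RNA per cell cannot be told apart. The part of the marker levels, of the mitochondrial share and of the greater depth of all Ngfr KO libraries in these differences was not tested.

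The 10 genes had few exons in their longest coding transcripts. In GENCODE M21 (GRCm38), Jun, Junb, Jund and Ier2 had 1 exon in their longest coding transcript, as did 1.95% of the tested genes, whose median was 9 exons. Fos, Fosb, Atf3 and Dusp1 had 4 exons, and Egr1 and Zfp36 had 2. Merged over all annotated transcripts, the exons of Ier2 summed to 1522 bases, those of Jund to 1668, those of Fos to 2352 and those of Fosb to 6243. The median over the tested genes was 4529. Fosb lies at 19302696 to 19310051 and Zfp36 at 28376784 to 28380253, both on the minus strand of chromosome 7. Chromosome 8 holds Jund (70698949 to 70700616, plus strand), Ier2 (84661331 to 84662852, minus strand) and Junb (84974484 to 84978718, minus strand). Fos lies on the plus strand of chromosome 12 (85473890 to 85477273).

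Some reads cannot be assigned with certainty, because no source states that counting used strand. Jun overlaps the antisense gene Junos, whose own value was at most 0.577 in any sample. The end of Junb overlaps the end of Prdx2 on the opposite strand, with WT values of 17.6 to 24.6 and Ngfr KO values of 24.2 to 29.8 (limma adjusted p = 0.0696). Jund and Zfp36 each overlap an antisense gene that was not analysed here, and that of Jund (70699162 to 70700080) lies inside Jund. Reads there may have been counted for Jund or Zfp36 or left out, so both values are uncertain in either direction. The annotated span of Dusp1 overlaps Ergic1 and Gm8225 on the opposite strand. It also overlaps AC122252.4 and AC122252.1 on its own strand, which counting by strand would not separate. Atf3 overlaps Gm24748 on the opposite strand. Fosb, Fos, Egr1 and Ier2 overlap no other gene in GENCODE M21.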

How the data were processed

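The deposited table holds a normalised signal for each gene and sample, which its name calls TMM. Per the submitters' processing notes, reads were demultiplexed with bcl2fastq 2.20.0.422 and the build was mm10. The aligner, the counter, the annotation and the TMM software are not given in the sources used here. SMART-Seq v4 amplification and Nextera XT libraries were used, per the labels' protocols. In every sample 100% of the values above 0 were whole multiples of 1 step (tolerance 0.05 reads), and dividing by that step recovered the reads. Totals were 17244925 to 21538400 reads. Amplified reads are not independent molecules.

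Genotype and replicate number came from the sample titles. Ngfr KO was compared with WT on log2(value + 1) with lmFit and trended eBayes of limma 3.58.1 (R 4.3.3) and genotype as the only term, over the 8326 genes that reached 1 in 3 or more samples, at a Benjamini-Hochberg adjusted p under 0.05. The pseudocount understates changes of low genes. edgeR 4.0.16 (filterByExpr, its own TMM factors, quasi-likelihood test) was run on the recovered reads. The other alternatives were a pseudocount of 0.1 or 5, no filter or a filter at 10, quantile or median ratio scaling, robust untrended eBayes, array weights, a replicate block and leaving out each sample. Both fits were tested on simulated data, in which genes varied independently of one another, unlike the 10 genes here.

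Coordinates and exon lengths came from GENCODE M21 by identifier (21118 matched, 58 did not). Start windows came from RefSeq, GRCm38.p6. The 10 genes, all lists and the tests were chosen with earlier results of these data known. Named genes were the 10, Ngfr, and, of each other list, called genes without overlap by size of change (up to 6 each way for AP-1 subunits and immediate early genes, up to 3 for other lists), the 5 closest profiles, and genes said to be named after their values were seen. Listed genes absent from the table were not analysed here, and 1 listed gene is not reported here.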

Additional observations from a re-analysis of the deposited data

Results flagged for a closer look

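In each of 17 results, the 10 genes and 7 marker sums, Dixon's criterion at the 95% level asked whether the gap beside 1 of the 4 WT samples was large for their range. Chance gives about 1 in 20 such groups, and 2 were found. The Dusp1 value of 105 in WT replicate 3 stood apart from the other WT samples at 57.2 to 62.2, a gap of 0.897 of the range. The summed value of the reticular cell markers was 160 in WT replicate 4 against 57.0 to 64.3 in the other WT samples, a gap of 0.929 of the range.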

How the results depend on the processing

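The log2 change of Fosb was negative and called in all 18 alternatives, from -1.76 to -1.25. Jund was called in 12 of the 17 that tested it, Zfp36 in 7 of 18 and Egr1 in 5 of 18, all with negative changes. Fos, Jun, Junb, Atf3, Ier2 and Dusp1 were called in none. The sign was kept in 11 of 18 for Jun and 13 of 18 for Dusp1, both near 0, and in all 18 for the other 4. Of the 10 genes, 1 was called lower without a filter, with the stricter filter (9 tested) and with edgeR, 1 to 3 when 1 sample was left out (1 without Ngfr KO replicate 1), and 1 without both WT replicate 3 and Ngfr KO replicate 2. The other immediate early and AP-1 genes called lower were 4 of 10 tested with the stricter filter, which leaves fewer to test, and those called higher were 1 without a filter and 1 to 4 when 1 sample was left out (1 without Ngfr KO replicate 2). Over all genes, 2844 were called: 535 of 1297 with the stricter filter (359 higher, 176 lower), 4881 with array weights, 1614 to 3006 when 1 sample was left out (1870 without WT replicate 1, 1803 without Ngfr KO replicate 1, 1614 without Ngfr KO replicate 2) and 1885 without both high samples. Where no reason is given, the cause was not tested. The sample titles do not say whether replicate numbers pair the samples. Deviations of same-numbered samples correlated by 0.30, -0.06 and -0.01, and of the 3 WT samples only replicate 1 correlated best with its own number. So few correlations cannot decide whether the samples were paired. With the number as a replicate block, 2717 genes were called, 4 of the 10 genes among them, with Egr1 added (log2 change -0.81, limma adjusted p = 0.0441). WT replicate 4 has no Ngfr KO sample of its number, so it does not enter the genotype estimate of that fit. Median ratio scaling moved the median change of all genes from 0.02 to 0.07 and turned no call of the 10 to the other direction. Low values limit Jund, the only one of the 10 below a value of 5, and the genes that failed the filter.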
